A study of Mus musculus with 9 samples.

Results

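The genes described here are 38 macrophage and dendritic cell genes, taken as a list of gene symbols and measured in the olfactory mucosa of mice given dexamethasone. A gene was followed through the array probe annotated with its symbol, and through the probe of the highest mean over the 9 arrays where it had more than 1. Of the 38 genes, 36 had a named probe, among 23631 features (genes and unnamed probes) on the array. The other two, Lyz2, which encodes the lysozyme of myeloid cells, and Ly6c1, a surface protein of the Ly6 family, had no probe named here. Their levels are not analysed. The choice of the list used no value of these arrays, but it was made with earlier results of these data known, so the counts below describe the list and are no independent support for a direction.

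The arrays hold total RNA of the olfactory mucosa, the nasal lining that carries the olfactory sensory neurons, from wild-type male C57BL/6 mice aged 6 to 8 weeks. The 27 mice were divided into 3 groups of 9. Control mice received saline for 2 weeks, D1 mice received dexamethasone, a synthetic glucocorticoid, for 1 day, and WK2 mice received it daily for 2 weeks, at 1 mg/kg by intraperitoneal injection. For each group 3 samples with the best expression of olfactory marker protein were put on 1-colour arrays, so the arrays are no random draw from the mice. D1 mice and their saline controls also differed in how long injections lasted. Whether each sample is 1 animal is not stated, so a p-value here speaks of the variation among these 9 samples, part of which may come from the assay.

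Macrophages and dendritic cells are myeloid cells that engulf particles and dead cells and present antigen to T cells. Tissue macrophages depend on the growth factor receptor encoded by Csf1r, while dendritic cells depend on the one encoded by Flt3, and monocytes enter tissue from blood through the chemokine receptor CCR2. In the olfactory epithelium, macrophages clear dying sensory neurons. Glucocorticoids are known to lower inflammatory gene expression and to raise receptors for uptake, such as CD163 and the mannose receptor, in cultured human macrophages.

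The median intensity of an array lay between 1202 and 1447, and the values were used as deposited. D1 replicate 2 and WK2 replicate 3 stood apart in being high for most of these genes, so counts are given with and without them. A level is an array intensity on a linear scale, and a difference is a difference of group means of log2(intensity + 50). The pseudocount of 50 makes differences of dim genes smaller than they are. Each difference comes from 1 limma fit over the 9 arrays, and a gene was called changed at an adjusted p (Benjamini-Hochberg over all 23631 features) under 0.05. WK2 arrays read slightly brighter than control arrays over the whole table: the median difference of all features was 0.14, and it was 0.04 after median centring, 0.03 after cyclic loess and 0.01 after quantile normalization. The comparisons share arrays, the control arrays serving in both comparisons with saline, so their values stand side by side and are not independent.

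The promoters of 4 members were chosen to show the sequence upstream of the genes the results turn on: Cx3cr1 and Mrc1, which lay on opposite sides of control at 2 weeks, and C1qb and C1qc, neighbours on chromosome 4 with little difference between groups. Each line gives the 250 bases before the start of the gene, 5′ to 3′ on the gene's own strand, from RefSeq on GRCm38.p6. Capitals mark GAGGAA or, read from the other strand, TTCCTC, the core bound by PU.1, the transcription factor that directs myeloid development. Cx3cr1 lies on the minus strand of chromosome 9 (chr9:120068297-120068546), Mrc1 on the plus strand of chromosome 2 (chr2:14229164-14229413), C1qb on the minus strand of chromosome 4 (chr4:136886201-136886450) and C1qc on the same strand (chr4:136892915-136893164).
Cx3cr1: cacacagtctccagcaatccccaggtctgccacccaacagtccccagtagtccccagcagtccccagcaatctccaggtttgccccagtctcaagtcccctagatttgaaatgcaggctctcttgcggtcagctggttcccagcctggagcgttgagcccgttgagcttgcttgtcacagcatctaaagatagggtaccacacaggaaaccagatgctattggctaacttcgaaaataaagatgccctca
Mrc1: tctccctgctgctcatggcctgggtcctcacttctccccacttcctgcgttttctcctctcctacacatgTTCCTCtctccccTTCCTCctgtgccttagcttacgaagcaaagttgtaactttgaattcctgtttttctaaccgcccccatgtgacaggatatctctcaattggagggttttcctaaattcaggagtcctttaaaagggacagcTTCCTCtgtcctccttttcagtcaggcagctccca
C1qb: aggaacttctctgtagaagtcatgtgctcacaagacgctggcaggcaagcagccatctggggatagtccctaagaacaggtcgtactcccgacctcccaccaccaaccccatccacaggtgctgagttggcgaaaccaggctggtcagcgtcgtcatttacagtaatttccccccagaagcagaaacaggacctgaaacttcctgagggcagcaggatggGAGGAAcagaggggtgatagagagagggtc
C1qc: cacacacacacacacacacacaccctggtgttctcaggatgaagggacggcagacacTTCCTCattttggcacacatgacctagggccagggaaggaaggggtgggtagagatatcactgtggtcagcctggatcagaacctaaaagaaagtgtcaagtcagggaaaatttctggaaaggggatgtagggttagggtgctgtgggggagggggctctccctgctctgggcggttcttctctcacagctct
The core occurs 3 times upstream of Mrc1, 1 time each upstream of C1qb and C1qc, and 0 times upstream of Cx3cr1. Of the 29 members with a promoter sequence, 14 held it on either strand (48.3%), against 6986 of 27025 genes (25.9%). The 14 include Ly6c1, which had no named probe. The palindromic glucocorticoid response element, searched as GNACA and TGTNC with 3 bases between them, was found upstream of 0 of the 29 members and of 119 of the 27025 genes (0.440%). These matches describe letters in a short window and say nothing of binding in the tissue.

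No member passed the test in any comparison. In D1 against control limma called 0 of the 36 members, as it called 0 of all features (0.0%), and 0 members had an unadjusted p under 0.05, against 473 features (2.00%). In WK2 against control 0 of 36 were called, against 380 features (1.61%), and 7 had an unadjusted p under 0.05, namely Cx3cr1, Cd83, Mrc1, Adgre1, Folr2, Laptm5 and Cd86, a share below that of all features (29.7%). In WK2 against D1 0 of 36 were called, against 22 features (0.0931%), and 4 had an unadjusted p under 0.05, namely Cd83, Cx3cr1, Mrc1 and Folr2, against 19.2% of features. Under array weights, which let arrays that fit the model poorly count less, limma called 3 members in WK2 against control, Cx3cr1, Mrc1 and Cd14, against 2738 features (11.6%). It called 1, Cx3cr1, after median centring, against 1545 features (6.54%), and after quantile normalization, against 1419 features (6.00%). In each case the share of members called was below that of features.

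After 2 weeks all 5 Fc receptor and adaptor genes had means above control, as did 5 of 7 scavenger and tissue-macrophage receptors (71.4%, against 62.7% of all features), while the fractalkine receptor Cx3cr1 lay below. After 1 day members lay on either side of control. Of the 36 members, 20 had a higher and 16 a lower mean in D1 than in control, with a median difference of 0.07 against 0.03 over all features. In WK2, 26 were above and 10 below control, with a median of 0.28 against 0.14 over all features, and single differences ran from -0.69 to 0.80. After median centring, quantile normalization or cyclic loess the WK2 split was 24 higher and 12 lower, with a median 0.13 or 0.14 above that of all features. In WK2 against D1, 24 were higher and 12 lower, with a median of 0.23 against 0.10.

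All 3 WK2 arrays lay above all 3 control arrays for 13 of 36 members (36.1%, against 23.8% of all features), namely Fcgr1, Fcgr3, Fcgr4, Ccr2, Xcr1, Mrc1, Msr1, Marco, Folr2, Clec7a, Cd83, Cd86 and Adgre1. They lay below for 3 (8.33%, against 13.8%), Flt3, Cx3cr1 and Laptm5. The first count leans on the overall brightness of the arrays: it was 5 after median centring (15.9% of all features), 4 after quantile normalization (14.7%) and 7 after cyclic loess (16.9%). Cd83 and Adgre1 were in it under each of these scalings, and Cx3cr1, Flt3 and Laptm5 stayed in the lower count, which was 4 members after median centring (18.8% of all features), 3 after quantile normalization (17.8%) and 4 after cyclic loess (16.4%), a smaller share of members (8.33% to 11.1%) than of features. In D1 against control the groups did not overlap for 0 members upward (4.92% of all features) and 1 downward, Cd209a (5.19%). In WK2 against D1 they did not overlap for Xcr1, Mrc1 and Cd83 upward, 3 members (18.7% of all features), and for Cx3cr1 downward (12.6%).

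**Figure D1:**
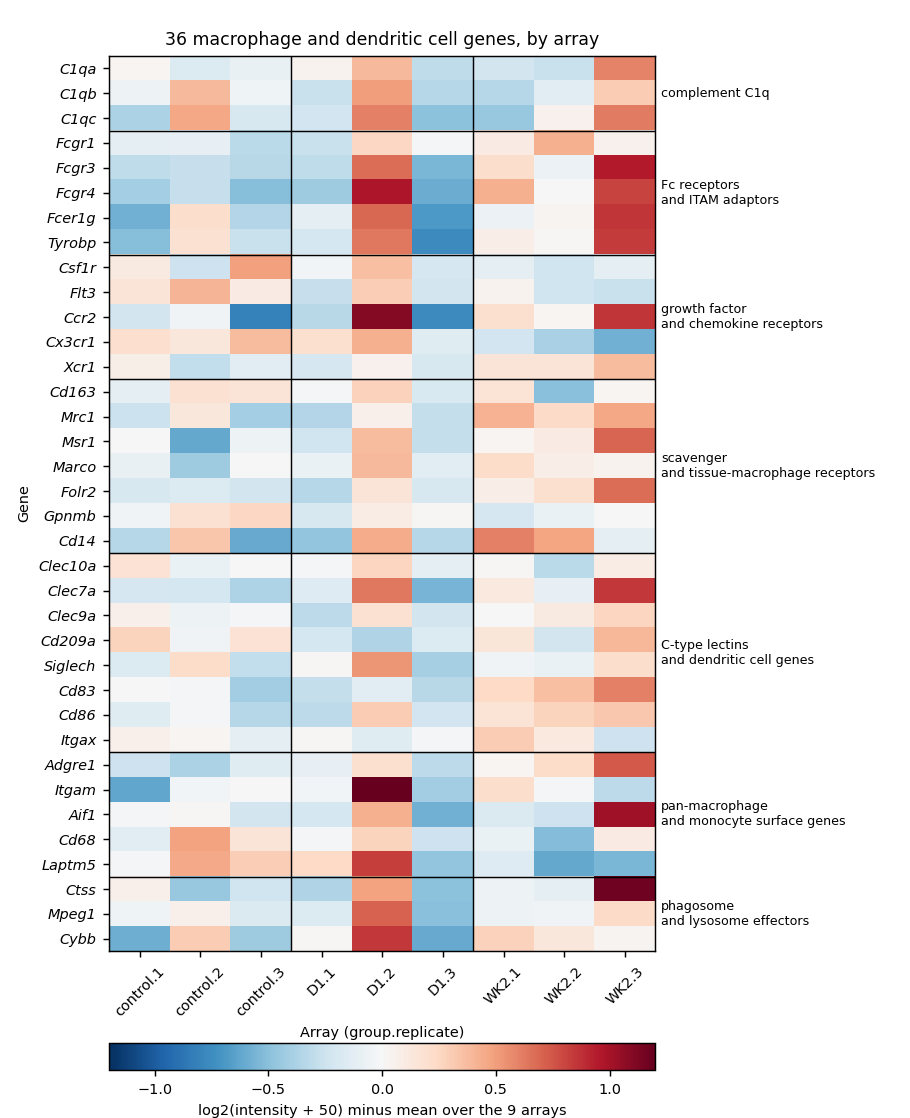
Each row is 1 of the 36 genes, by role, and each column 1 array; colour gives log2(intensity + 50) minus the gene's mean over the 9 arrays. The columns of D1 replicate 2 and WK2 replicate 3 are the reddest, and Cx3cr1 is blue on all 3 WK2 arrays.

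Single arrays moved the list more than the groups did. D1 replicate 2 was the highest D1 array for 34 of 36 members, against 36.8% of all features, and its level was a median of 1.61 times the mean of the other two D1 arrays (1.01 over all features). Itgax and Cd209a were the exceptions, lowest on that array. The ratio was at least 1.5 for 21 members (58.3%, against 5.67% of features) and was largest for Ccr2 (3.19), Fcgr4 (2.92), Itgam (2.76) and Cybb (2.33). WK2 replicate 3 was the highest WK2 array for 26 of 36 members, against 40.8% of features, with a median ratio of 1.25 (1.00 over all features). The ratio was at least 1.5 for 13 members (36.1%, against 12.4% of features). This array also had the largest intensity summed over all features, 222288431, against 192604332 and 193506310 on the other WK2 arrays. Its largest ratios belonged to Ctss (2.38) and Aif1 (2.36), while Cd14 (0.632), Itgax (0.725) and Itgam (0.747) were low on it. Itgam was thus high on D1 replicate 2 and lowest of its group on WK2 replicate 3.

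Markers of other cells stood high on the same D1 array. All 14 measured neutrophil genes were highest of the D1 arrays in D1 replicate 2, where their median lay 1.34 above their 9-array mean on the log2 scale, against 0.04 and -0.51 on the other two. Their summed intensity ranged from 193372 to 461299 in control, from 278166 to 749569 in D1 and from 358324 to 515711 in WK2, and none of the 14 was under an intensity of 200 on all arrays. The 6 pan-leukocyte genes were at 0.81 on D1 replicate 2, against -0.21 and -0.63, and at 0.62 on control replicate 2. All 7 MHC class II genes, which antigen-presenting cells use to show peptides to T cells, were likewise highest on D1 replicate 2. In WK2 against control they were 1 higher and 6 lower, with a median of -0.31 and 0 called. The 6 mature olfactory neuron genes were all lowest of the D1 arrays on D1 replicate 2, at -0.31 against -0.07 and 0.17. On WK2 replicate 3 the neutrophil list stood at -0.35 and the pan-leukocyte list at -0.12. The 3 measured erythroid genes stood at 0.51 on D1 replicate 2, against 0.21 and -1.03, and at -0.31 on WK2 replicate 3. They were highest on control replicate 2 (1.02) and WK2 replicate 1 (0.84). Neutrophil genes also varied within the other groups, at -1.55, 0.57 and -0.53 on the control arrays and 0.43, -0.08 and -0.35 on the WK2 arrays. Osteoclast genes, a related myeloid lineage of bone, were low on every D1 array, at -0.21, -0.35 and -0.16, and at 0.16, -0.18 and 0.11 on the WK2 arrays. In D1 against control 0 of these 9 genes were higher, and 4 were lower without overlap (44.4%, against 5.19% of features), with 0 called. Summed over the 36 members, intensity was 166991 to 190487 in control, 139370 to 249484 in D1 and 169455 to 241503 in WK2, and 3 of the 36, Xcr1, Marco and Clec9a, were under 200 on all arrays. In a whole tissue, more cells of a type and more RNA per cell cannot be told apart, and the part of neutrophil or red cell RNA in these values was not tested.

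Without D1 replicate 2, D1 against control turned: 4 members were higher and 32 lower, with a median of -0.16, while 55.3% of all features were higher. Control replicate 2, itself the highest control array for 20 of 36 members (55.6%, against 28.3% of features), stayed in this fit. Leaving out 1 array at a time, from any group, gave medians from -0.16 to 0.19 for D1 against control. In the fit without D1 replicate 2, D1 lay below control without overlap for 4 members, C1qb, Flt3, Clec9a and Cd209a (11.1%, against 7.59% of features). It lay above for 0 (8.17% of features). This sets 2 arrays against 3, and Clec9a was under 200 on all arrays. WK2 against D1 widened to a median of 0.41 with 29 higher and 7 lower, and 20 members lay above D1 without overlap (55.6%, against 28.2% of features), a comparison of 3 arrays with 2. Without WK2 replicate 3, WK2 against control kept 23 higher and 13 lower at a median of 0.22, against 0.10 over all features, and WK2 against D1 had a median of 0.06, against 0.07 over all features. No member was called in any fit that left out 1 array, or in the fit without both.

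**Figure D2:**
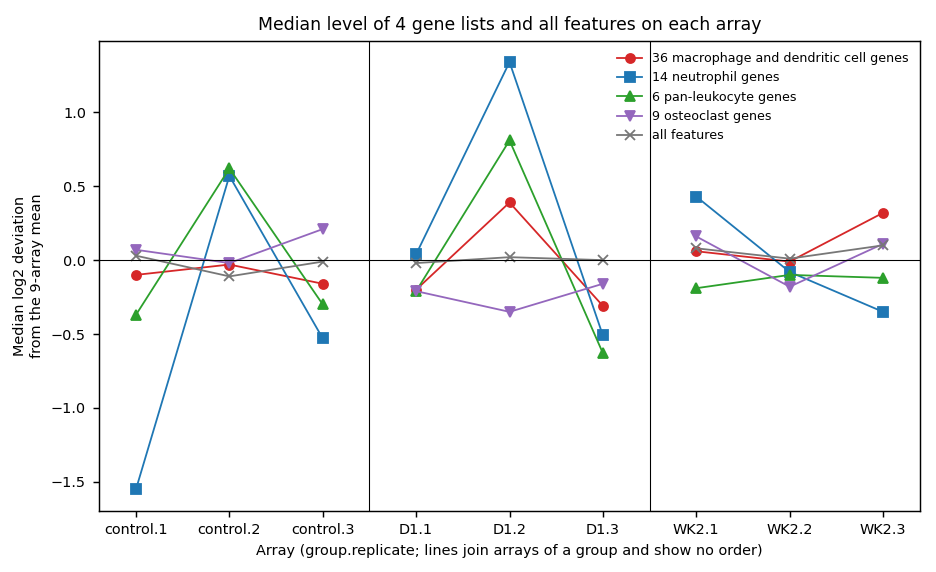
Median log2 deviation from the 9-array mean for 4 gene lists and all features, array by array (lines join arrays of a group and show no order). The macrophage and dendritic cell genes reach 0.39 on D1 replicate 2, where neutrophil genes reach 1.34, and 0.32 on WK2 replicate 3, where neutrophil genes lie at -0.35.

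Growth factor and chemokine receptors were 2 higher and 3 lower in WK2 than in control, from -0.64 for Cx3cr1 to 0.72 for Ccr2. Cx3cr1 encodes the receptor for fractalkine, carried by resident macrophages and patrolling monocytes. Its level was 3314, 3152 and 3742 on the control arrays, 3281, 3864 and 2597 on the D1 arrays and 2447, 2184 and 1904 on the WK2 arrays. Every WK2 array lay below every control and every D1 array. The mean was 3403 ± 304 in control, 3247 ± 634 in D1 and 2178 ± 272 in WK2 (SD, n = 3), and the WK2 difference from control was -0.64 ± 0.18 (SE; limma, adjusted p = 0.0703), the smallest adjusted p of any member. Leaving out 1 array at a time kept this difference between -0.72 and -0.54.

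Flt3 encodes the receptor for the growth factor that dendritic cell precursors need. It was dim, at 429, 523 and 411 in control, 305, 480 and 320 in D1 and 394, 316 and 308 in WK2. All WK2 arrays lay below the control arrays, by -0.37 ± 0.19 (limma, adjusted p = 0.207), and within the range of the D1 arrays. Xcr1, the receptor of cross-presenting dendritic cells, was under 200 on all arrays, at 89.6, 58.2 and 71.6 in control, 65.3, 87.4 and 65.8 in D1 and 97.5, 97.7 and 122 in WK2. The WK2 arrays were the 3 highest, but at such levels background makes up an unknown part of the signal.

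Csf1r, the receptor for CSF1 and IL-34, averaged 11993 ± 3067 in control, 11283 ± 2333 in D1 and 9710 ± 486 in WK2, with all groups overlapping. WK2 overlapped control only through control replicate 2, at 9113, and lay wholly below control after median centring. Ccr2 averaged 1578 ± 423 in control, 2348 ± 1729 in D1 and 2648 ± 878 in WK2. Its D1 mean rested on replicate 2, which read 4329 against 1567 and 1147, and D1 against control was -0.19 without that array and 0.36 with it. A second, dimmer Ccr2 probe gave 0.85 for WK2 against control, beside 0.72 for the brighter one.

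**Figure D3:**
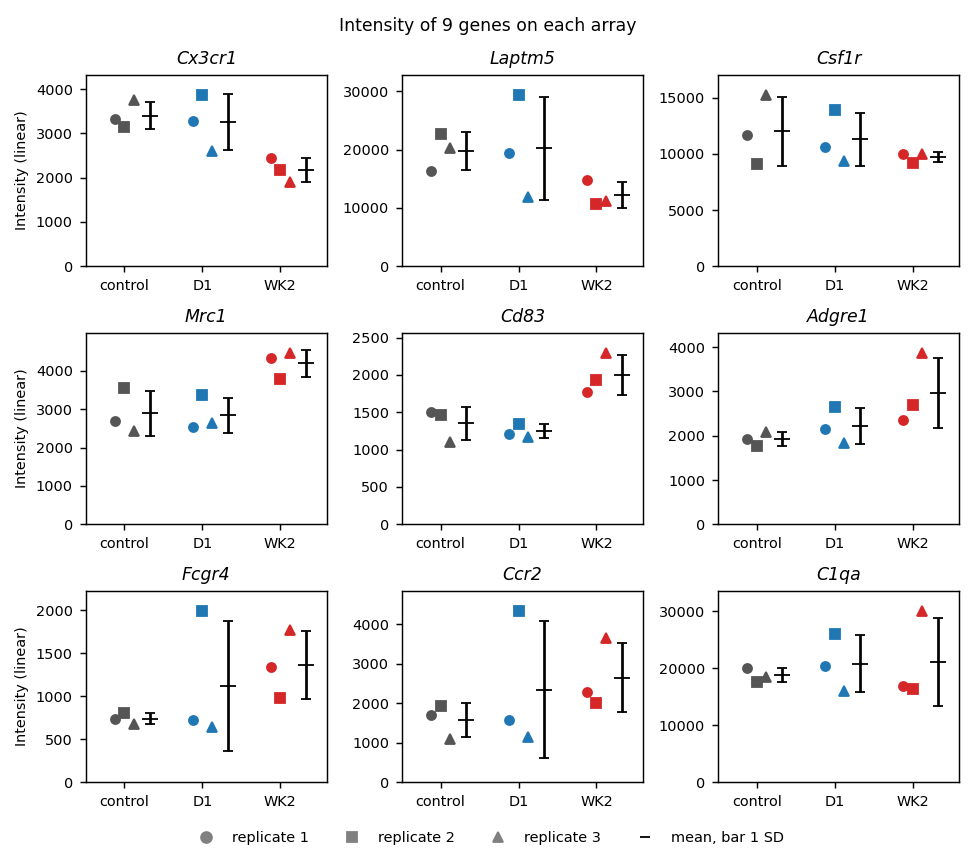
Intensity on each array for 9 members (linear axis from 0; symbols mark replicate numbers), with the group mean and 1 SD beside the points. Cx3cr1 and Laptm5 lie lower on all 3 WK2 arrays than on the control arrays, Mrc1, Cd83, Adgre1, Fcgr4 and Ccr2 lie higher, and Csf1r and C1qa overlap.

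Scavenger and tissue-macrophage receptors split into 5 higher and 2 lower in WK2 than in control, with a median of 0.50 that was 0.32 without WK2 replicate 3 and 0.27 after quantile normalization. Mrc1 encodes the mannose receptor of tissue macrophages. It read 2697, 3554 and 2421 in control, 2526, 3363 and 2639 in D1 and 4323, 3797 and 4461 in WK2. The WK2 arrays were the 3 highest of the 9, and the D1 arrays lay within the control range. WK2 exceeded control by 0.54 ± 0.18 (limma, adjusted p = 0.0963) and D1 by 0.56 ± 0.18 (limma, adjusted p = 0.180). After median centring, its WK2 and control arrays overlapped.

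Folr2, a folate receptor of perivascular and resident macrophages, read 338, 345 and 330 in control, 300, 444 and 337 in D1 and 419, 455 and 654 in WK2. Each WK2 array exceeded each control array, and 1 D1 array lay among the WK2 arrays. Its difference in WK2 was 0.51 ± 0.19 (limma, adjusted p = 0.121), and 0.33 without WK2 replicate 3. Msr1, a scavenger receptor for modified lipoproteins, read 787, 501 and 759 in control, 662, 1044 and 641 in D1 and 808, 850 and 1315 in WK2, or 0.50 ± 0.26 (limma, adjusted p = 0.214), and 0.29 without WK2 replicate 3. Its dimmer probe, under 100 on all arrays, gave 0.16.

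Cd163, the haemoglobin scavenger receptor, was dim and did not follow Mrc1: its means were 273 ± 35.6 in control, 263 ± 51.9 in D1 and 239 ± 66.6 in WK2, with all groups overlapping. Cd14, the co-receptor for bacterial lipopolysaccharide, averaged 4603 ± 1634, 4885 ± 1820 and 6523 ± 1617, and its WK2 arrays of 7785, 7084 and 4701 overlapped a control array of 6450. Marco, a scavenger receptor for bacteria, stayed under 200. Gpnmb, a glycoprotein of lipid-laden macrophages, was -0.23 in WK2 by its brighter probe and 0.09 by its dimmer one, so its sign depends on the probe.

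The Fc receptors, which bind antibody, and their ITAM adaptors, which pass the signal on, were all 5 higher in WK2 than in control, with differences of 0.37 to 0.80 and a median of 0.51. All 5 stayed higher after median centring, quantile normalization and cyclic loess, and without WK2 replicate 3, where the median was 0.37. Fcgr4 read 736, 811 and 680 in control, 723, 1991 and 640 in D1 and 1343, 986 and 1777 in WK2. The WK2 arrays all exceeded the control arrays, but 1 D1 array was the highest of the 9. WK2 lay 0.80 ± 0.37 above control (limma, adjusted p = 0.177). D1 lay 0.38 ± 0.37 above control with D1 replicate 2 and -0.12 without it, a change of sign.

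Fcgr1, the high-affinity receptor, was dim at 308, 310 and 258 in control, 271, 410 and 329 in D1 and 363, 470 and 350 in WK2. Fcgr3 read 3490, 3572 and 3416 in control, 3495, 6918 and 2948 in D1 and 5015, 4115 and 8390 in WK2. For both genes the WK2 arrays lay above the control arrays and the D1 arrays spread across both, and the differences of 0.37 ± 0.18 and 0.67 ± 0.33 did not pass (limma, adjusted p = 0.188 and 0.197). Without WK2 replicate 3 the Fcgr3 difference was 0.37. Fcer1g and Tyrobp, the shared adaptors, averaged 16017 ± 4725 and 5621 ± 1423 in control and 23248 ± 8848 and 8169 ± 2792 in WK2. Their WK2 replicate 3 arrays, 33434 and 11388, set much of that mean: the difference of 0.51 from control in each gene was 0.22 for Fcer1g and 0.25 for Tyrobp without that array. Both genes overlapped between groups. Some of these receptors and adaptors are also carried by neutrophils or natural killer cells.

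Lectins and dendritic cell genes were 6 higher and 2 lower in WK2 than in control, with a median of 0.12, but 4 and 4 after quantile normalization or cyclic loess, where Clec9a and Siglech changed sign. Cd83, a marker of mature dendritic cells, read 1499, 1463 and 1101 in control, 1213, 1349 and 1171 in D1 and 1774, 1926 and 2291 in WK2. The WK2 arrays were above both other groups, whose ranges overlapped. Its difference was 0.55 ± 0.17 from control (limma, adjusted p = 0.0814) and 0.66 ± 0.17 from D1 (limma, adjusted p = 0.137), and stayed between 0.41 and 0.63 from control when 1 array was left out. Cd86, a costimulator of T cells, read 711, 778 and 614 in control, 627, 993 and 670 in D1 and 896, 966 and 1007 in WK2, or 0.43 ± 0.18 above control (limma, adjusted p = 0.158).

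Cd209a, a lectin of monocyte-derived dendritic cells, was the only member whose D1 and control arrays did not overlap, at 622, 495 and 583 in control, 435, 385 and 451 in D1 and 569, 432 and 689 in WK2. D1 lay -0.38 ± 0.18 from control (limma, adjusted p = 1.000), and WK2 stood near control at -0.02. Clec7a, the receptor for fungal beta-glucan, averaged 1800 ± 122 in control and 2771 ± 1026 in WK2, a difference of 0.55 that was 0.27 without WK2 replicate 3. Clec10a, a lectin of macrophages and dendritic cells, averaged 2043 ± 189 and 1902 ± 284, and Siglech, a marker of plasmacytoid dendritic cells, 236 ± 55.5 and 257 ± 34.1. Clec9a, of cross-presenting dendritic cells, stayed under 200. Itgax, the CD11c integrin chain, had group means of 25311 ± 1529, 24602 ± 1461 and 26779 ± 5053, and it was lowest of its group on D1 replicate 2, where most members were highest.

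The general macrophage and monocyte marker genes split by gene, with 3 higher and 2 lower of the 5 measured in WK2 than in control (median 0.18, and -0.14 without WK2 replicate 3). Adgre1, which encodes F4/80, read 1937, 1765 and 2085 in control, 2152, 2644 and 1842 in D1 and 2345, 2690 and 3863 in WK2. All WK2 arrays lay above all control arrays, by 0.58 ± 0.21 (limma, adjusted p = 0.110; 0.38 without WK2 replicate 3), and 1 D1 array lay among them. Laptm5, a lysosomal membrane protein of blood cells, read 16315, 22675 and 20279 in control, 19443, 29373 and 11864 in D1 and 14819, 10746 and 11279 in WK2. The WK2 arrays lay below all control arrays, by -0.69 ± 0.30 (limma, adjusted p = 0.157), while the D1 arrays ranged from among the WK2 arrays to above the control arrays. Cd68, a lysosomal glycoprotein of macrophages, read 3863, 5917 and 4700 in control, 4149, 5099 and 3552 in D1 and 3991, 2940 and 4516 in WK2, overlapping throughout.

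Itgam, the CD11b integrin chain shared with neutrophils, averaged 1679 ± 387 in control, 2619 ± 1691 in D1 and 1887 ± 345 in WK2. Its D1 difference of 0.47 became -0.01 without D1 replicate 2. Aif1, which encodes IBA1, read 8376 on WK2 replicate 3 against 3639 and 3460 on the other WK2 arrays, so its WK2 mean of 5158 ± 2788 rests on 1 array, and WK2 against control was 0.27 with it and -0.14 without it.

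The 3 measured phagosome and lysosome effectors were all higher in WK2 than in control, except after median centring (2 higher, 1 lower), with a median of 0.38 that was 0.13 without WK2 replicate 3. Ctss, a protease that trims the MHC class II chaperone, read 14749, 10288 and 12017 in control, 11032, 19814 and 10030 in D1 and 13593, 13128 and 31781 in WK2. Here too 1 array in each dexamethasone group stood far above the rest, and the WK2 difference from control was 0.54 with WK2 replicate 3 and 0.13 without it. Cybb, the catalytic chain of the phagocyte NADPH oxidase, read 267, 538 and 303 in control, 429, 805 and 262 in D1 and 525, 470 and 437 in WK2, where the WK2 arrays lay within the control range. Mpeg1, a pore-forming protein of phagosomes, read 6673, 7216 and 6109, then 6175, 11335 and 4859, then 6616, 6716 and 8097, overlapping in all comparisons. Its WK2 difference from control was 0.10 by this probe and 0.42 by a dimmer one.

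The 3 chains of C1q, which starts the classical complement pathway and is made mainly by tissue macrophages, lay near control in both dexamethasone groups, but each group rests on 1 high array. All 3 were below control in D1 without D1 replicate 2 (median -0.32) and in WK2 without WK2 replicate 3 (median -0.17). Control replicate 2 stayed in those fits. It was 1.36 times the mean of the other control arrays for C1qb, 1.68 times for C1qc and 0.915 times for C1qa. With 1 array left out at a time, C1qc against control ran from -0.32 to 0.25 in D1 and from -0.16 to 0.37 in WK2. C1qa read 20105, 17683 and 18559 in control, 20366, 25988 and 15999 in D1 and 16961, 16402 and 29993 in WK2. C1qb read 10006, 13642 and 10034 in control, 8670, 14752 and 8232 in D1 and 8187, 9480 and 12892 in WK2. C1qc read 6478, 11646 and 7396 in control, 7206, 12850 and 6002 in D1 and 6163, 8745 and 13073 in WK2. Each chain was highest of its group on D1 replicate 2 and on WK2 replicate 3. The 6 differences from control lay between -0.15 and 0.12, with SEs of 0.25 to 0.35, so differences of this size were not detectable with 3 arrays a group.

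**Figure D4:**
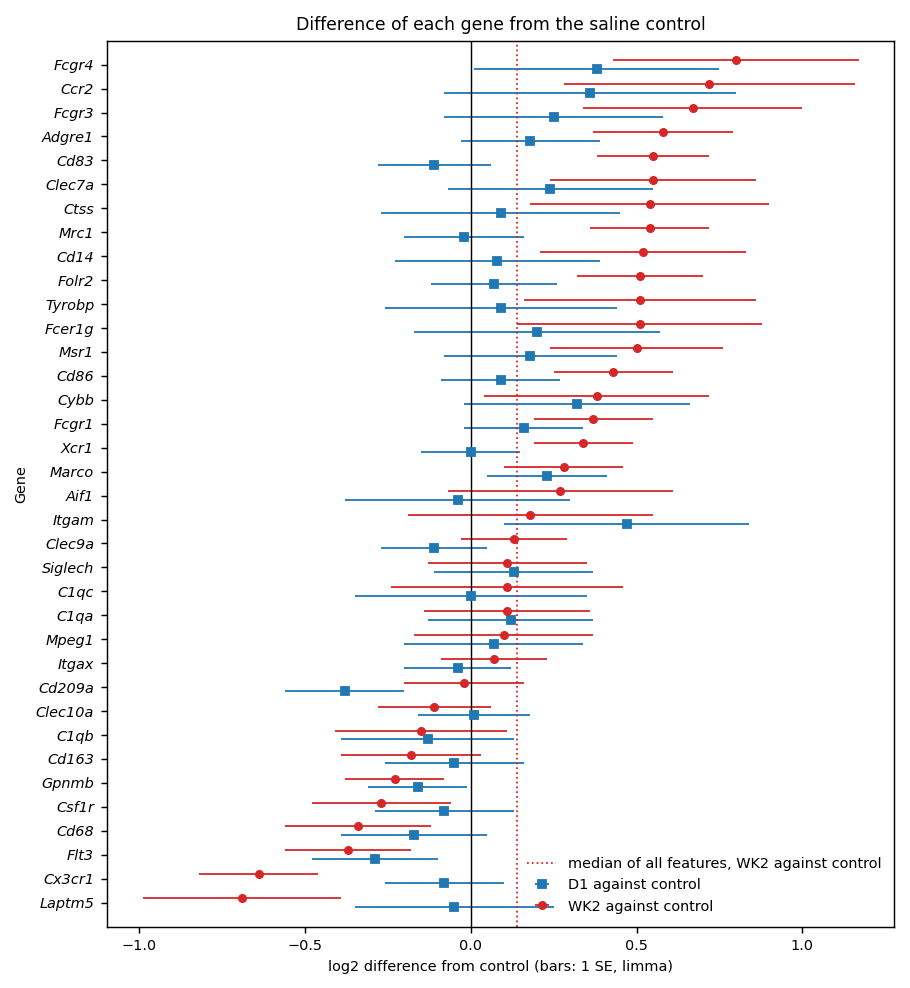
log2 difference from control for each of the 36 genes, with bars of 1 SE, for D1 (squares) and WK2 (circles), ordered by the WK2 difference; the dotted line marks the WK2 median of all features, 0.14. WK2 differences run from -0.69 for Laptm5 to 0.80 for Fcgr4, and no gene passed the adjusted test in either comparison.

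Genes that act with the members, from lists of partners taken with earlier results known, were read in the same fit. The ligands of the receptors above were 5 higher and 3 lower in WK2 than in control, with a median of 0.01 and 0 of 8 called, and 3 higher and 5 lower after each of the other scalings or without WK2 replicate 3. Cx3cl1, the fractalkine that CX3CR1 binds, read 13004, 13189 and 13882 in control, 11580, 9768 and 12580 in D1 and 9876, 7760 and 5585 in WK2. Both dexamethasone groups lay wholly below control, by -0.25 ± 0.20 in D1 (limma, adjusted p = 1.000; -0.15 without D1 replicate 2) and -0.82 ± 0.20 in WK2 (limma, adjusted p = 0.0609), though neither passed. After median centring limma called Cx3cl1 as well as Cx3cr1, in a setting that called 1545 of all features (6.54%). Gas6, a partner described below, was also called there. Flt3l, the ligand of FLT3, read 3756, 3774 and 4451 in control, 4962, 4478 and 3734 in D1 and 3560, 2500 and 2418 in WK2. Its WK2 arrays lay below both other groups (WK2 against control -0.51 ± 0.19; limma, adjusted p = 0.115). Il34, a ligand of CSF1R, stood at -0.56 ± 0.17 in WK2 (limma, adjusted p = 0.0816). Csf1, the other CSF1R ligand, stood at 0.10.

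Among 11 measured myeloid transcription factors, 3 were higher and 8 lower in WK2 than in control, with a median of -0.49 (-0.35 without WK2 replicate 3) and 0 called. Spi1, which encodes PU.1, read 5959, 4814 and 5846 in control, 6747, 5801 and 6898 in D1 and 5084, 3667 and 1617 in WK2. The WK2 arrays lay below the D1 arrays and overlapped the control arrays, with WK2 replicate 3, where many members were high, the lowest. WK2 against control was -0.81 ± 0.34 (limma, adjusted p = 0.146), and -0.35 without that array. Runx1, a factor of blood cell development, read 13818, 12792 and 13949 in control, 10995, 10868 and 12239 in D1 and 10614, 9035 and 7655 in WK2, stepwise lower without overlap (WK2 against control -0.58 ± 0.15; limma, adjusted p = 0.0649).

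Of 13 lysosomal and phagocytic partners 7 were higher and 6 lower in WK2. The partner lists held 8, 11, 13, 6, 9 and 4 measured genes, and limma called 1.61% of all features in WK2 against control. The 1 called gene among all these lists, a share near that of features, was Gas6, the bridging ligand that lets phagocytes bind dying cells. It read 47090, 54660 and 55291 in control, 50698, 39763 and 45854 in D1 and 29115, 24432 and 19165 in WK2. The WK2 arrays lay far below both groups, and Gas6 fell by 1.13 ± 0.18 from control on the log2 scale (limma, adjusted p = 0.0398). The call held without WK2 replicate 1 (adjusted p = 0.0331) and was lost without any 1 of the other 8 arrays, at adjusted p-values of 0.0645 to 0.148, with the replicate block (0.105) and in the fit of only the groups compared (0.112), while the difference stayed between -1.27 and -0.97. Mertk, a receptor for GAS6, read 2462, 2156 and 2202 in control, 1540, 1779 and 2220 in D1 and 1793, 1163 and 1298 in WK2, or -0.68 ± 0.19 (limma, adjusted p = 0.0729).

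The complement partners of C1q held 5 higher and 1 lower of 6 measured in WK2, with a median of 0.18 and 0 called, but 3 and 3 after quantile normalization. The lower one, C1ra, a protease of the C1 complex, read 3625, 3724 and 3298 in control, 2820, 3300 and 3247 in D1 and 2463, 2240 and 1724 in WK2, without overlap with either group (-0.73 ± 0.16; limma, adjusted p = 0.0550). C5ar1, the receptor for C5a, stood at 0.19 ± 0.14, and at -0.05 after quantile normalization and -0.02 after cyclic loess. Of 9 ITAM signalling partners 4 were higher and 5 lower, with a median of -0.12 and 0 called. Fgr, a Src-family kinase of myeloid cells, was the highest at 1048, 1240 and 1052 in control, 1379, 2795 and 1524 in D1 and 2234, 3628 and 1464 in WK2, where every dexamethasone array exceeded every control array (WK2 1.01 ± 0.33; limma, adjusted p = 0.0936). Inpp5d, the phosphatase that restrains Fc receptor signalling, lay at -0.70 ± 0.28 (limma, adjusted p = 0.135), and at -0.43 without control replicate 2. The 4 measured NADPH oxidase partners of Cybb had a median of -0.09, with 2 higher, 2 lower and 0 called, Cyba at -0.52 ± 0.39 and Ncf4 at -0.22 ± 0.43; without WK2 replicate 3 the median was 0.07, and without control replicate 2 Cyba was -0.14 and Ncf4 0.16.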

How the data were processed

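Total RNA of mouse olfactory mucosa was amplified, labelled with Cy5 and measured on 9 arrays, per the labels' protocols. The authors deposited 1 table of intensity values on a linear scale, 26423 probes by 9 arrays; 8 to 18 values per array are below 0, and the background correction, scaling and software behind them are not stated in the material at hand. Probes were named through the platform annotation, updated by RefSeq gene ID (GRCm38.p6): 21876 had 1 symbol, 0 had several and 4547 had none, giving 19084 genes. Array medians lay within 0.5 of each other on the log2 scale, so no normalization was added.

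In R 4.3.3, limma 3.58.1 fitted 1 linear model to log2(intensity + 50) of all 9 arrays (lmFit, contrasts.fit, eBayes), with Benjamini-Hochberg adjustment over 23631 features. For a single gene, the smallest p that exact permutation of 3 and 3 arrays allows is 0.1. On data simulated for WK2 against control the fit recovered 94% of 100 genes changed 4-fold and 47% of 100 changed 2-fold, and called 11 unchanged genes. For 2-fold changes it recovered 61% in D1 against control and 44% in WK2 against D1. Each gene was drawn independently, without shifts shared by many genes on 1 array, so recovery on the real arrays may differ. Changes smaller than 2-fold were not simulated.

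The members, partner lists and markers were chosen with earlier results of these data known. Arrays are given singly for up to 3 members of the smallest p in each role and 2 per partner list; Ccr2, Cd14, Itgam, Aif1, Fcer1g and Tyrobp values of single arrays were added after values were seen. The number of arrays limits the precision. Alternatives were other scalings, pseudocounts of 500 and 16, probes averaged per gene, a filter on the dimmest 25% of features, a replicate block, moderation with trend and robust settings, array weights, fits of the groups compared, a looser threshold and leaving out each array. Leaving out both D1 replicate 2 and WK2 replicate 3 was added after seeing the data.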

Additional observations from a re-analysis of the deposited data

How the results depend on the processing

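In WK2 against control the count of members called was 0, and it was 1 after quantile normalization and 1 after median centring (Cx3cr1, WK2 against control, adjusted p 0.0488 and 0.0371), 3 with array weights (Cx3cr1, Mrc1 and Cd14) and 3 at an adjusted p under 0.1 (Cx3cr1, Cd83 and Mrc1). It was 0 under the remaining alternatives and in every fit with 1 array left out; the other comparisons gave 0 members throughout. The array weights were smallest for control replicate 2 (0.233) and WK2 replicate 3 (0.265). Member medians ran from -0.16 to 0.19 (D1 against control), 0.22 to 0.35 (WK2 against control) and 0.02 to 0.41 (WK2 against D1) with 1 array left out. Fcgr4, D1 against control, ran from -0.12 to 0.67 and Itgam, D1 against control, from -0.01 to 0.81; both turned negative without D1 replicate 2, alone or together with WK2 replicate 3. C5ar1, WK2 against control, was -0.05 after quantile normalization and -0.02 after cyclic loess; Cyba, WK2 against D1, was 0.13 without both arrays. The cause was not tested. Over all alternatives 138 of 2253 member differences turned sign, in a set where 60 of 108 lie within 1 SE of 0. Deviations from group means correlated at -0.282 to 0.136 between same-numbered arrays of different groups and at -0.338 to 0.308 between differently numbered ones. The labels do not say whether the numbers pair the samples, and correlations from so few arrays cannot settle it. With the replicate block 0 members were called, the Gas6 call was lost (limma, adjusted p 0.105) and the features called in WK2 against control went from 380 to 1. Features called there were 1419 after quantile normalization, 1545 after median centring, 682 after cyclic loess, 777 and 131 with pseudocounts of 500 and 16, 615 without the dimmest features, 257 with trend and robust moderation, 2738 with array weights, 0 in the fit of the 2 groups, and 1 to 953 with 1 array left out (1 without WK2 replicate 2, 953 without WK2 replicate 1). With no detection calls, the share of background in Xcr1, Marco and Clec9a is unknown.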
